A study of Homo sapiens with 12 samples.

Results

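The recovery of polyadenylated RNA with tagged RPL12 was compared between the S38D and the wild-type (WT) form of the protein. Recovery was taken as the IP-minus-input difference in log2 CPM (gene counts scaled to a common library total, after TMM, a correction for composition) within 1 fraction. The difference between the lines was S38D minus WT of that quantity. The comparison used 8 of the 12 libraries of the series, chosen by their labels: 2 input and 2 IP libraries of each form, which make up 4 of the 6 fractions. The remaining libraries, of the S38A form, were not part of the contrast. They entered the choice of genes tested, the TMM scaling and the shared estimate of spread, and their values are set beside the others. All libraries came from HEK293 Flp-In T-Rex cells, a human cell line of embryonic kidney origin, in which a FLAG/HA-tagged RPL12 was stably overexpressed from a vector recombined into the cells. The groups were WT input, WT IP, S38D input and S38D IP. S38D has aspartate in place of the serine at position 38 and is used as a mimic of the phosphorylated protein. Colonies were selected as monoclonal per the labels, so the form of RPL12 and the line that carried it cannot be told apart. Cells of every group were cultured in the same way, and no drug treatment is named beyond cycloheximide in the fractions and washes.

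RPL12, also called uL11, belongs to the large subunit of the ribosome. It lies at the base of the ribosomal stalk, where GTP-hydrolysing translation factors such as the elongation factors bind. An 80S fraction of a sucrose gradient holds single ribosomes assembled from both subunits, and anti-FLAG IP takes from it the ribosomes that carry the tagged protein, with the mRNA they hold. The title of the study places phosphorylation of RPL12 in translation during mitosis. The comparison asks whether the mRNAs held by ribosomes with the S38D protein differ from those held by ribosomes with the WT protein, beyond any difference between the lines in the starting fraction. No library was an IP from cells without a tag, so RNA bound without the tag cannot be told apart from RNA held by tagged ribosomes.

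The 4 input libraries held 7434431 to 8494734 gene counts and the 4 IP libraries 3186164 to 5048911. The first WT IP library had the lowest depth and the second the highest, with both S38D IP libraries between them at 4390785 and 3695441. ERCC spike-in RNA took 5.43% and 2.57% of the counts in the WT IP libraries and 3.79% and 5.18% in the S38D IP libraries, against 0.116%, 0.484%, 0.350% and 0.330% in the matching inputs (95% Clopper-Pearson intervals within 0.024 percentage points, counting error only). The IP-over-input ratio of that share was 46.6 and 5.31 in the WT fractions and 10.8 and 15.7 in the S38D fractions, so both S38D values lay between those of WT. The labels do not say whether fractions of a line came from separate cultures, so the tests measure only the spread between these fractions, which may be technical. Identifiers in the files were not matched to gene symbols here, and the defining markers of HEK293 cells and the RPL12 transcript were therefore not checked.

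The fractions of the WT line differed from each other more than either differed from the S38D fractions in IP over input. Among the 11665 genes with a mean of at least 10 CPM over the 8 libraries, the SD over genes of the difference between the WT fractions was 0.524 on the log2 scale. Between the S38D fractions it was 0.260. Between the first WT fraction and the first and second S38D fractions it was 0.449 and 0.443, and between the second WT fraction and the same S38D fractions 0.293 and 0.306. The second WT fraction was therefore closer to both S38D fractions than to the other fraction of its own line. Among the 6025 genes of at least 50 CPM the SD was 0.486 between the WT fractions and 0.177 between the S38D fractions.

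**Figure D1:**
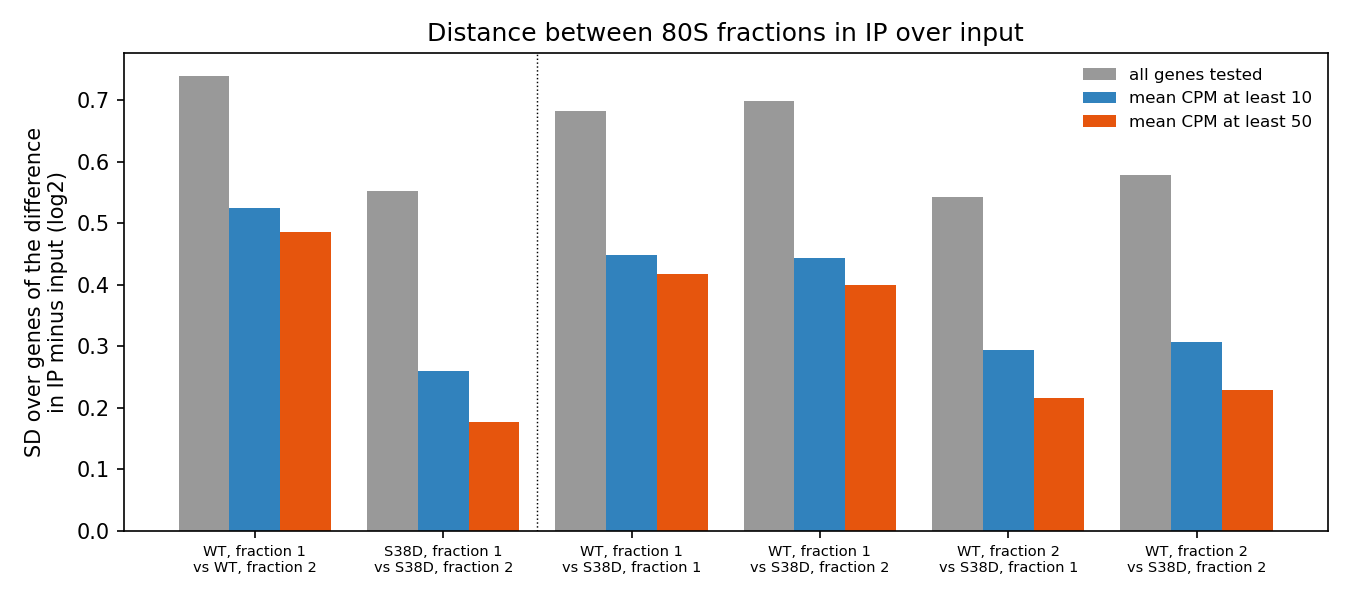
Standard deviation over genes of the difference in IP minus input (log2) between pairs of fractions, for all 16920 genes tested, the 11665 of at least 10 CPM and the 6025 of at least 50 CPM. Bars left of the dotted line are pairs within a line and bars right of it are pairs between the lines; the highest bars are those of the WT pair.

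Counts of large differences gave the same order. Of the 11665 genes, 745 (6.39%) lay at least 2-fold apart between the WT fractions and 35 (0.300%) between the S38D fractions. The first WT fraction lay at least 2-fold apart from the S38D fractions in 389 and 376 genes, and the second in 67 and 72. Pearson correlations across these genes, which are not independent replicates and share library and depth within a fraction, were 0.639 between the WT fractions, 0.856 between the S38D fractions, 0.754 between the first WT fraction and each S38D fraction, and 0.816 between the second WT fraction and each S38D fraction. The S38A fractions, which are not part of the contrast, correlated with the second WT fraction at 0.878 and 0.831 and with the first at 0.652 and 0.546. The first WT fraction thus stood apart from the other fractions of the series.

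The spread of recovery over genes was also widest in the first WT fraction. The SD of IP minus input over the 11665 genes was 0.675 in the first and 0.505 in the second WT fraction, and 0.434 and 0.503 in the S38D fractions. At least 2-fold enrichment in IP was seen for 851 and 276 genes in the WT fractions and for 211 and 361 in the S38D fractions. At least 2-fold depletion was seen for 574 and 260 genes in the WT fractions and for 107 and 232 in the S38D fractions. The second WT fraction lay between the S38D fractions in enrichment and above both in depletion, and the first WT fraction had the highest of both counts. These levels depend on scaling. With total counts in place of TMM, IP minus input moved by -0.36 and -0.17 in the WT fractions and by -0.24 and -0.28 in the S38D fractions, which leaves the difference between the line means nearly unmoved. The enriched genes then numbered 425 and 154 in WT and 80 and 120 in S38D, and the depleted ones 1680 and 539 in WT and 374 and 751 in S38D.

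Gaps between single fractions of the same and of different lines had the same order. In genes of at least 10 CPM the median absolute difference was 0.315 on the log2 scale between the WT fractions and 0.147 between the S38D fractions. It was 0.278 and 0.274 between the first WT fraction and the S38D fractions, and 0.178 and 0.190 between the second and the S38D fractions. Between the means of the lines, which average over fractions and are not comparable with these gaps, it was 0.157. Both S38D values lay inside the range of the WT values in 3828 genes (32.8%), and both WT values inside the range of the S38D values in 901 (7.72%).

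IP minus input was higher for abundant than for scarce transcripts in every fraction of both lines. The 16920 genes tested were ordered by mean CPM over the 8 libraries, IP included, and cut into 10 equal bins. Enrichment in IP raises that mean, so the ordering is not independent of IP minus input. Its part in the trend was not tested. In the most abundant bin the median IP minus input was 0.44 and 0.25 in the WT fractions and 0.35 and 0.40 in the S38D fractions. In the least abundant bin it was -0.29 and -0.14 in WT and -0.27 and -0.32 in S38D. Both S38D values lay between the WT values in the most abundant bin, and in the least abundant bin the S38D and WT values overlapped. With total counts the most abundant bin stood at 0.07 and 0.08 in WT and at 0.11 and 0.12 in S38D, so the order of the lines there depended on scaling. The S38A fractions stood at 0.25 and 0.23 with TMM, close to the second WT fraction.

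**Figure D2:**
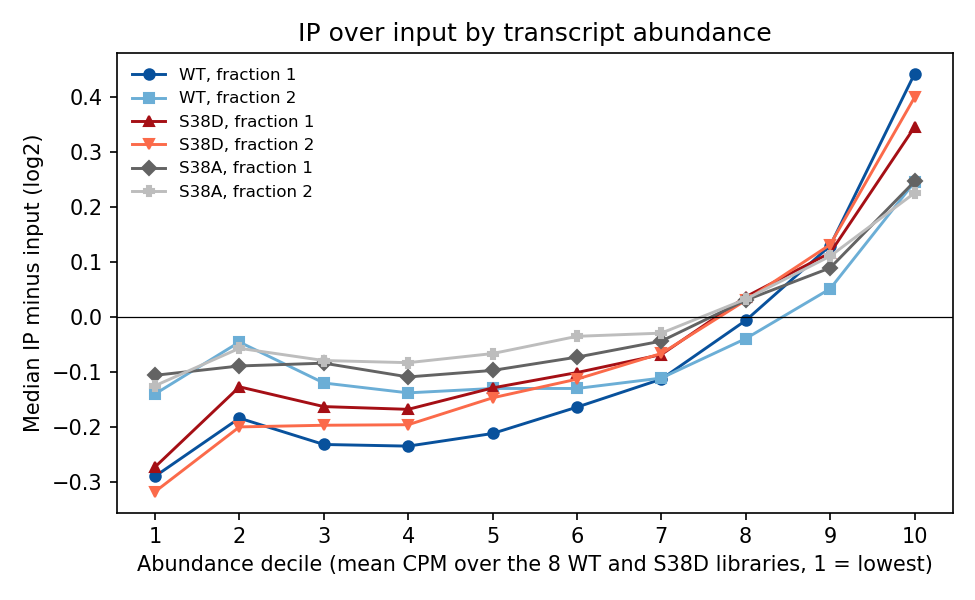
Median IP minus input (log2) in 10 equal bins of genes ordered by mean CPM over the 8 WT and S38D libraries, 1 line per fraction. All lines climb from bin 7 to bin 10, with no steady climb over the lower bins. In bin 10 the S38D fractions (0.35 and 0.40) lie between the WT fractions (0.44 and 0.25).

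The 100 most abundant genes of the inputs took a larger share of the counts in IP than in input. The share was 15.0% and 16.2% in the WT IP libraries against 10.6% and 11.5% in their inputs, and 14.9% and 15.6% in the S38D IP libraries against 9.85% and 10.0% (95% Clopper-Pearson intervals within 0.040 percentage points, counting error only). The IP-over-input ratio of this share was 1.41 in both WT fractions, and 1.51 and 1.56 in the S38D fractions. The ratios of the lines did not overlap. With 2 fractions against 2, a two-sided exact permutation test cannot go below p = 0.333, and the S38A ratios were 1.29 and 1.32.

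The test of each gene used the fraction as a block, so that IP was compared with the input of the same fraction. Of 16920 genes, 0 passed at adjusted p under 0.05 (0% called, edgeR quasi-likelihood test, lowest adjusted p = 0.987). Unadjusted p under 0.05 was reached by 460 genes (2.72%), of which 283 (1.67%) were higher and 177 (1.05%) lower in S38D, where an even spread of p-values would give 846. The counts called were also 0 in DESeq2 (67 at unadjusted p under 0.05), in voom (435) and in edgeR with no block (134). The direction of the genes at unadjusted p under 0.05 depended on the method. The higher ones made up 61.5% in the edgeR test above and 62.3% in voom. Their share was 58.9% with RLE size factors in place of TMM, 65.5% with mean CPM of at least 10 and 56.8% in the 8 libraries alone. It was 48.6% with total counts in place of TMM (177 higher and 187 lower) and 48.2% with no filter on low counts. With no block it was 42.5% (57 and 77), in voom with quality weights 39.0% (117 and 183) and in DESeq2 29.9% (20 and 47).

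**Figure D3:**
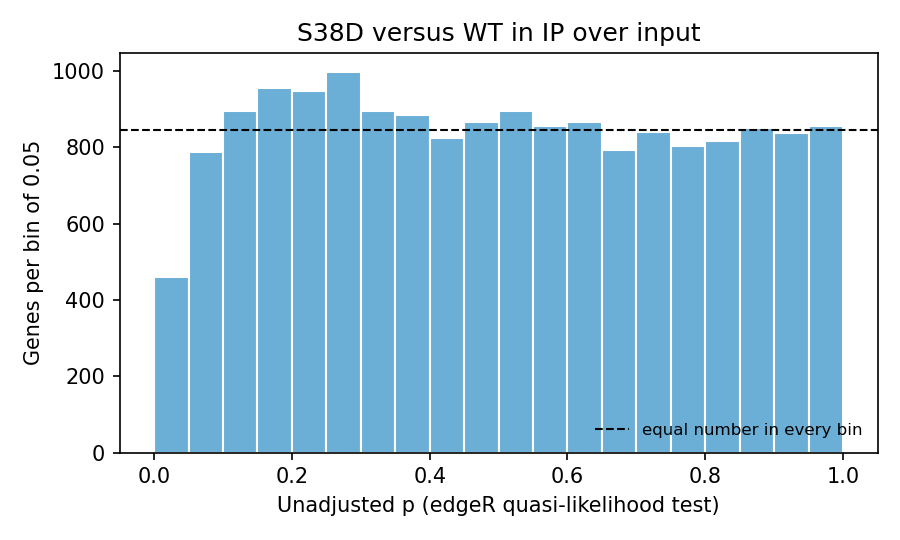
Number of genes in each bin of 0.05 of the unadjusted p of the S38D-minus-WT difference, with a dashed line at the mean of 846 genes per bin. The first bin, with 460 genes, is the lowest.

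The fitted differences were small for most genes. The median of all genes was 0.02 on the log2 scale, with quartiles of -0.19 and 0.20. A fitted difference of 2-fold or more was found in 922 genes, of which 16 had at least 10 CPM. The median standard error was 0.254. The 95% interval of the difference lay wholly within 2-fold in either direction for 10746 genes (63.5%). This was so for 4045 of 4230 genes (95.6%) in the most abundant quartile, for 4030 (95.3%) and 2632 (62.2%) in the next quartiles, and for 39 (0.922%) in the least abundant, of 0.246 to 6.13 CPM. In that last quartile a 2-fold difference was not detectable for most genes with these libraries. The intervals assume that fractions of all lines vary alike, whereas the WT fractions lay farther apart than those of S38D.

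Both S38D fractions lay above both WT fractions in 3231 genes (19.1% of those tested) and below both in 1918 (11.3%). With TMM that excess was largest in abundant genes. In the most abundant quartile 1092 genes (25.8%) were higher and 236 (5.58%) lower without overlap, and in the least abundant 599 (14.2%) were higher and 703 (16.6%) lower. These counts carry no test, and the size of the shift was small, with a median difference of 0.03 on the log2 scale in the most abundant quartile and -0.07 in the least.

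At most genes of low p the lines differed more in IP than in input. For the 283 genes that were higher at unadjusted p under 0.05, the median difference between lines was 0.51 in IP and -0.09 in input (log2 CPM), and the IP gap was the larger in 244 (86.2%), against 63.7% of all genes. For the 177 lower genes the medians were -0.83 in IP and 0.17 in input, and the IP gap was the larger in 151 (85.3%). The gene of lowest p, ENSG00000246596.2, described below, was among the exceptions. The median recovery of the 283 genes was -0.86 and -0.67 in the WT fractions and -0.03 and -0.07 in the S38D fractions. That of the 177 was 0.63 and 0.46 in WT and -0.41 and -0.42 in S38D. With total counts the higher genes stood at -1.22 and -0.84 in WT and at -0.27 and -0.35 in S38D, and the lower ones at 0.29 and 0.29 in WT and at -0.64 and -0.68 in S38D. The higher genes were thus more depleted from WT IP than from S38D IP under both scalings. These medians describe genes chosen by the same contrast and support nothing by themselves.

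By the rule for named genes, ENSG00000187955.7 and ENSG00000153936.12 were the genes of at least 10 CPM with the lowest p among those higher in S38D without overlap. ENSG00000187955.7 stood at 18.9 and 22.0 CPM in WT input and 6.46 and 13.7 in WT IP. It stood at 25.3 and 17.7 CPM in S38D input and 26.8 and 19.9 in S38D IP. Its IP level was below input in both WT fractions and close to it in both S38D fractions. IP minus input was -1.51 and -0.68 in WT and 0.08 and 0.17 in S38D (-0.16 and -0.11 in S38D with total counts, so that sign depended on scaling), and the fitted difference was 1.11 (SE 0.28, unadjusted p = 0.00275, edgeR adjusted p = 0.987, n = 2 fractions a line). The S38A fractions were at -0.12 and -0.15. The value of -1.51 rests on 17 counts in the first WT IP library.

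For ENSG00000153936.12 the CPM was 65.8 and 92.1 in WT input, 21.7 and 41.8 in WT IP, 68.3 and 72.8 in S38D input and 42.2 and 47.4 in S38D IP. It was depleted from IP in all 4 fractions, more in WT. IP minus input was -1.59 and -1.13 in WT and -0.69 and -0.62 in S38D, a fitted difference of 0.67 (SE 0.20, unadjusted p = 0.00646, edgeR adjusted p = 0.987). The S38A fractions, at -0.54 and -0.59, were close to those of S38D.

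ENSG00000246596.2 had the lowest p of all genes and was lower in S38D. It stood at 10.2 and 7.20 CPM in WT input, 31.2 and 13.0 in WT IP, 18.2 and 13.6 in S38D input and 19.1 and 10.7 in S38D IP. IP minus input was 1.59 and 0.83 in WT and 0.07 and -0.34 in S38D (-0.17 and -0.61 with total counts), with no overlap. The fitted difference was -1.38 (SE 0.31, unadjusted p = 0.00118, edgeR adjusted p = 0.987), and the S38A fractions stood at 0.14 and 0.19. The larger part of this difference lay in input: S38D minus WT was 0.85 in input, where the lines did not overlap, and -0.49 in IP, where they did (log2 CPM). In all 3 genes the first WT fraction lay farthest from S38D. The rule of no overlap puts the other WT fraction between, so that part of the pattern was fixed by the choice. Among the 283 higher genes at unadjusted p under 0.05 (edgeR), the first WT fraction was the lower of the WT pair in 211. Among the 177 lower genes it was the higher of the pair in 120.

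ENSG00000117724.8, named after its values were seen, is 1 of the G2M markers described next and was the single gene called when low counts were not filtered (log2 -1.12, SE 0.20, edgeR adjusted p = 0.00139, 0.00298% of 33516 genes called). Its CPM was 33.7 and 33.1 in WT input, 446 and 102 in WT IP, 52.0 and 37.3 in S38D input, and 132 and 133 in S38D IP. The transcript was enriched in IP in all 4 fractions, 13.1-fold and 3.05-fold in WT and 2.53-fold and 3.55-fold in S38D. The S38D values overlapped those of WT, since 1 of them lay above the second WT fraction. With the filter the difference was -1.14 (SE 0.51, unadjusted p = 0.0509, edgeR adjusted p = 0.987). Without the first WT fraction it was -0.05 (SE 0.18, edgeR adjusted p = 0.968) and without the second -2.16 (SE 0.17, adjusted p = 3.3e-18).

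**Figure D4:**
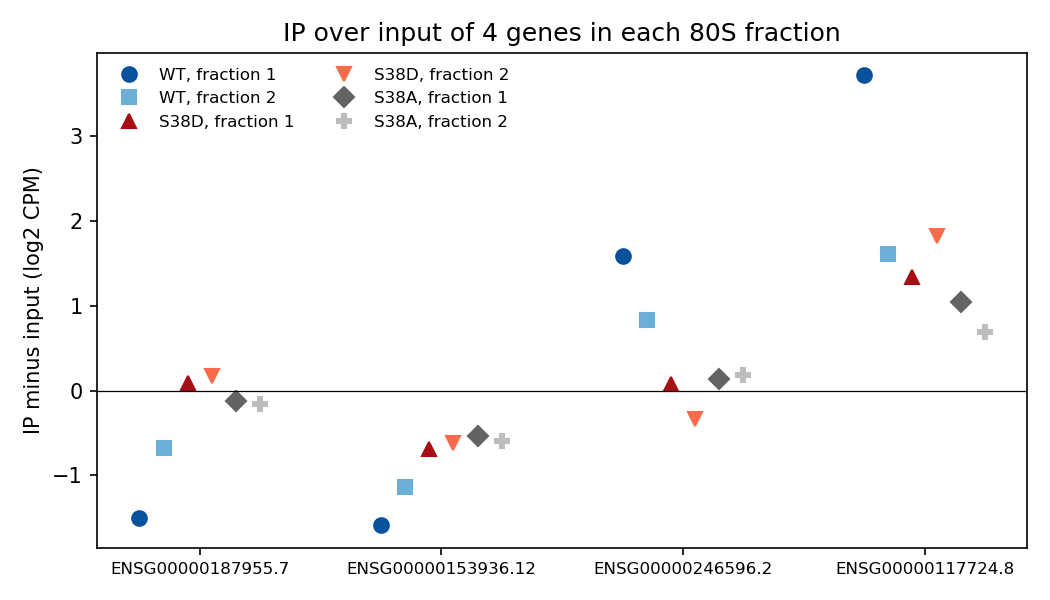
IP minus input (log2 CPM) of the 4 named genes in each fraction, with S38A as grey markers. WT fraction 1 is the most extreme point of each gene, at -1.51, -1.59, 1.59 and 3.72.

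Cell cycle marker lists were examined because the study concerns mitosis. They were built by identifier from published marker pairs and held 239 G1, 251 S and 208 G2M genes among those tested, chosen with earlier results of these data known. In each list 0 members passed. Unadjusted p under 0.05 was reached by 2 higher and 2 lower G1 members, 5 higher and 4 lower S members, and 2 higher and 3 lower G2M members, beside 1.67% and 1.05% of all genes. The median difference between S38D and WT was 0.05 for G1, 0.04 for S and -0.05 for G2M markers, beside 0.02 for all genes.

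The G2M list differed between the WT fractions more than between the lines. Its median IP minus input was 0.25 in the first WT fraction and -0.11 in the second, and 0.02 and 0.05 in the S38D fractions. Both S38D medians lay between the WT medians. The first WT fraction was above the second in 153 of 208 G2M members (73.6%), against 48.5% of all genes, and the median gap between them was 0.34. Between the S38D fractions the median gap was -0.02. Both S38D values lay within the WT range in 101 G2M members (48.6%), against 29.2% of all genes. This share was 39.3% for G1 markers, 37.5% for S markers and 37.7% for all genes of at least 50 CPM. Relative to the median of all genes in the same fraction, a measure that scaling does not move, the list stood at 0.32 and -0.06 in WT and at 0.06 and 0.09 in S38D. With total counts the first WT fraction was above the second in 121 members (58.2%), against 35.2% of all genes. The median member stood at 69.0 CPM and the median gene tested at 29.2. In the quartile of 29.2 to 71.1 CPM, which holds the median member, the WT fractions stood at -0.12 and -0.11, and in the quartile above it at 0.24 and 0.12. The first WT fraction was thus above the second in the higher of these quartiles also over all genes, and the part of abundance in the gap of the list was not tested.

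G1 and S markers differed between the WT fractions in the same direction, with smaller gaps. The first WT fraction was above the second in 154 G1 members (64.4%) and 152 S members (60.6%), with median gaps of 0.12 and 0.13. The medians of the G1 list were 0.14 and 0.07 in WT and 0.14 and 0.18 in S38D, and those of the S list were 0.09 and -0.02 in WT and 0.02 and 0.06 in S38D. The lines overlapped in both lists. Without overlap of single members, 52 G1 genes (21.8%) were higher and 14 (5.86%) lower in S38D, 47 S genes (18.7%) higher and 24 (9.56%) lower, and 29 G2M genes (13.9%) higher and 19 (9.13%) lower, beside 19.1% and 11.3% of all genes. The interval of the difference lay within 2-fold for 219 G1 (91.6%), 217 S (86.5%) and 181 G2M members (87.0%). The share was 63.5% over all genes, and 95.3% and 95.6% in the quartiles of 29.2 to 71.1 CPM and above. The median members of the lists stood at 71.7 (G1), 70.9 (S) and 69.0 CPM (G2M).

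**Figure D5:**
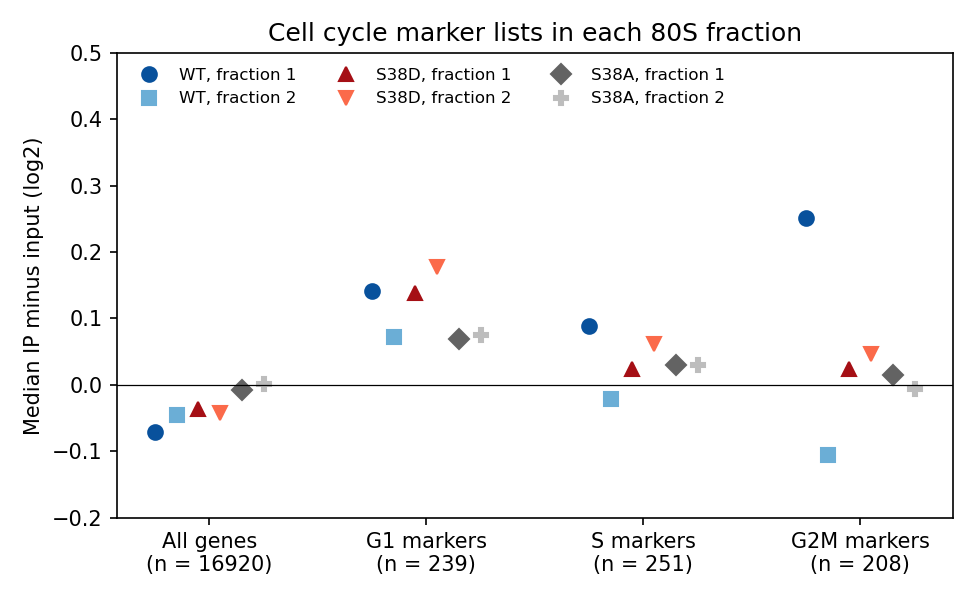
Median IP minus input (log2) of all genes tested and of the G1, S and G2M marker lists in each fraction, with S38A as grey markers. For G2M markers the WT fractions mark both ends of the range (0.25 and -0.11) and the S38D fractions lie between them (0.02 and 0.05).

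The number of calls depended on which WT fraction was kept, and with either one most calls were lower in S38D. Against the first WT fraction alone, 1486 of 17552 genes passed (8.47%), 387 higher (2.20%) and 1099 lower (6.26%) in S38D (edgeR adjusted p under 0.05, with the lone WT fraction assumed to vary like the others). Against the second alone, 59 of 17420 passed (0.339%), 14 higher (0.0804%) and 45 lower (0.258%). Both comparisons share the S38D libraries. Of the 208 G2M markers, 47 (22.6%) were lower and 3 higher against the first WT fraction, and 0 lower and 1 higher against the second. For G1 markers 27 (11.2%) were lower and 3 higher against the first, and for S markers 38 (15.1%) were lower and 7 higher. Against the second 0 G1 and 0 S markers passed.

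The 1099 genes lower in S38D against the first WT fraction, of which 1098 were in the fit of all fractions, were most enriched in that fraction. Their median IP minus input was 1.13 there, 0.21 in the second WT fraction, 0.35 and 0.41 in the S38D fractions and 0.23 and 0.13 in the S38A fractions. The 387 higher genes had a median of -0.70 in the first WT fraction and -0.09 in the second, with 0.05 and 0.08 in S38D and 0.01 and 0.05 in S38A. The 45 genes lower against the second WT fraction had a median of 1.45 in it, 0.40 in the first and 0.51 and 0.53 in S38D. These genes were chosen by those fits, so the medians are a description. The values of the first WT fraction go with its library facts given above, the lowest IP depth and the largest spike-in ratio, and their part in the result was not tested.

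Leaving out the first or the second S38D fraction gave 0 calls (edgeR, 264 and 247 genes at unadjusted p under 0.05). The medians of the lists moved with the WT fractions. Without the first WT fraction the median S38D-minus-WT difference was 0.14 for G2M, 0.13 for G1 and 0.11 for S markers, beside 0.05 for all genes. Without the second it was -0.20, -0.02 and -0.03, beside 0.05 for all genes. For each of the 3 lists the sign of the difference thus depended on which WT fraction was left out.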

How the data were processed

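Each library has a deposited table of raw counts, which lists 57820 Ensembl genes and 92 ERCC spike-ins. The submitters' processing notes name STAR 2.4.2a, bcl2fastq 2.16.0.10 and DESeq2, and the hg19 build. How reads were assigned to genes, and whether strand was used, is not stated in the labels or files, which leaves overlapping, antisense and near-identical genes uncertain. Of 59792 reference genes 0 carried an Ensembl identifier, so genes are named by identifier, no gene's position or sequence is given, and lists by symbol were not used.

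Gene counts without ERCC rows were fitted with edgeR 4.0.16 (R 4.3.3): filterByExpr by group with a minimum count of 10, TMM, and glmQLFit with glmQLFTest on all 12 libraries, with fraction as a block and IP nested in line (Benjamini-Hochberg over all genes). Log2 CPM used a prior count of 2. The labels pair IP and input by fraction, and deviations of same-numbered libraries correlated at 0.281 (WT), 0.644 (S38A) and 0.543 (S38D). Replicates differed beyond sampling noise (chi-square per degree of freedom 5.39 to 16.0). The code was run on simulated counts in which all fractions shared the same IP effect, apart from changes put into S38D. Those counts lack the wide gap between the WT fractions, so they cannot show how the test behaves with it. Named genes had a mean of at least 10 CPM, no overlap between lines and the lowest p, at most 2 a direction; of the lower genes 1 was taken by this rule and 1 after its values were seen. Cell cycle genes came from scran 1.30.0 (genes of 1 phase, in 20 or more of its pairs, and higher in a share of 0.8 or more of these). Alternatives used DESeq2 1.42.0, limma 3.58.1 voom, other scaling and filters, no block and omission of fractions. The comparison and lists were chosen with earlier results of these data known.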

Additional observations from a re-analysis of the deposited data

Results flagged for a closer look

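ENSG00000187955.7 lay below input in IP in both WT fractions and above it in both S38D fractions (below it in all 4 with total counts), and the difference between the lines was 1.11 on the log2 scale. The interaction test did not pass (edgeR adjusted p = 0.987), and the difference was 0.81 without the first WT fraction and 1.67 without the second.

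Spike-in RNA, which entered no gene test, averaged 4.24% ± 1.33 (SD, n = 4) of the counts in the IP libraries of WT and S38D, against 0.320% ± 0.152 (SD, n = 4) in their inputs. How much spike-in RNA went into the IP samples is not known here.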

How the results depend on the processing

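The number of genes called was 0 with RLE size factors, total counts, mean CPM of at least 10, DESeq2, voom, voom with quality weights (added after seeing the data), the 8 libraries alone and no replicate block (lowest adjusted p 1.00, 134 genes at unadjusted p under 0.05). It was 1 with no filter, and 0 to 1486 with 1 fraction left out: 59 without the first WT fraction, 1486 without the second, and 0 without either S38D or either S38A fraction. Genes higher in S38D without overlap numbered 2263 to 3238 except with no filter (9129). Those lower numbered 1820 to 2007 except with no filter (3090) and mean CPM of at least 10 (1183). With total counts 2623 were higher and 2007 lower, against 3231 and 1918 with TMM. With no filter or a stricter one a different number of genes is tested (33516 and 11704), and the cause was not tested further. Overlap needs 2 fractions a line, so it has no value with 1 left out or without the pairing. The genes at unadjusted p under 0.05 numbered 67 to 892 with all fractions kept, 1654 and 3748 without the first and second WT fraction, and 214 to 264 without any other fraction. For genes named for no overlap between lines, a kept sign after omission of a fraction largely followed from that choice and supports nothing. ENSG00000117724.8 stood at -0.05 (SE 0.18) without the first WT fraction, so its sign there carries little meaning. With these limits, the 4 named genes kept their sign under every alternative. Values for them changed side in 5 cases: without the second WT fraction all 4 passed, and with no filter ENSG00000117724.8 did. The comparison was least precise in the least abundant quartile of genes, where the median standard error was 0.735, against 0.171 in the most abundant. The part of depth in this was not tested.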
